A study of Mus musculus with 32 samples.

Results

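The 46 genes described here are cell cycle and proliferation genes, taken by symbol from the 24421 genes of the count tables. They come from a list of known cell cycle genes that was drawn up with earlier results of these data known. They comprise 21 S-phase genes, which act in DNA replication and its preparation, and 25 mitotic genes, which act in the entry into and passage through mitosis. All 46 were found, and all passed the filter on low counts together with 13453 genes in total. They were measured by bulk RNA sequencing in macrophages of mouse epididymal fat, sorted by flow cytometry into CD11c+ cells, which stained high for CD11c and low for CD206, and into CD206+ cells. The mice were C57BL/6J, either wild type (WT) or with a knockout of A20 in myeloid cells (KO), and had 12 weeks of high-fat diet (HFD) or standard diet (SD). Tnfaip3 encodes A20, which edits ubiquitin chains and dampens signalling through NF-kB. Genotype, diet and population gave 8 groups of 4 libraries, 32 in all. The labels name neither the Cre driver behind the knockout, nor the age of the mice, nor whether each library is a different mouse. The p-values therefore measure only the spread between these libraries, which may be technical.

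Before a cell divides, cyclin E and E2F transcription factors start the S-phase genes, MCM helicase subunits are loaded on replication origins, and ribonucleotide reductase and thymidine kinase supply deoxynucleotides. Later, cyclins A and B with Cdk1, the kinases Plk1 and Aurora A and B, kinesins and the spindle checkpoint carry out mitosis, under FOXM1 and B-Myb. Macrophages of adipose tissue can divide locally as well as arise from blood monocytes. In bulk RNA, fewer cycling cells and less cell cycle RNA per cell cannot be told apart.

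Known control elements differ between these phases: E2F sites are typical of S-phase promoters, and the CHR (cell cycle genes homology region) with CCAAT boxes of mitotic promoters. Promoter sequence from RefSeq (GRCm38.p6) was matched for 38 of the 46 genes, 18 S-phase and 20 mitotic, as the 250 bases before and 50 bases after 1 listed transcription start per gene. The letters searched on both strands were TTTCCCGC, TTTCGCGC, TTTGCCGC and TTTGGCGC for E2F, TTTGAA and TTCGAA for the CHR, and CCAAT for the CCAAT box. E2F matches on the 2 strands can overlap, as they do in Mcm5 and Mcm6. The 6 stretches below are shown as examples that hold the letters of either phase in different arrangements. Some promoters, such as those of Top2a and Cdk1, hold further matches outside the stretch shown. The stretches run 5′ to 3′ on the gene's strand, and capitals mark the searched letters or their reverse complement.
Cdk1: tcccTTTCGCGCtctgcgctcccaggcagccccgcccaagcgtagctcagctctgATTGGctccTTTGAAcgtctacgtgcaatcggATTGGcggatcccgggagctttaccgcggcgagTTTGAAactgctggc
Top2a: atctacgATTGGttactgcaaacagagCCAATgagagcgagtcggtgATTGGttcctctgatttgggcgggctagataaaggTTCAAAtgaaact
Cdc20: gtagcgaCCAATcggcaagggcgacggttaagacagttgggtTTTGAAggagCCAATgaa
Kif11: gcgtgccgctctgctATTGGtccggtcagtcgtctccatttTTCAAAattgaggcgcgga
Mcm6: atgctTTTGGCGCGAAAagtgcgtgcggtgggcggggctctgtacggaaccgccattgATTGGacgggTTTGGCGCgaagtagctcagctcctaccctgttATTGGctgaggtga
Mcm5: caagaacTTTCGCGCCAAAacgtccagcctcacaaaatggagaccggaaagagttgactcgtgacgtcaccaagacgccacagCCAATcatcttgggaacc
These lie at chr10:69352913-69353047 on the minus strand for Cdk1, chr11:99024200-99024294 on the minus strand for Top2a, chr4:118437344-118437403 on the minus strand for Cdc20, chr19:37376322-37376381 on the plus strand for Kif11, chr1:128359706-128359820 on the minus strand for Mcm6 and chr8:75109349-75109449 on the plus strand for Mcm5. The stretches for Cdk1, Cdc20, Kif11 and Mcm6 end at the base just before the listed start, that for Top2a 11 bases and that for Mcm5 60 bases before it. Across the matched promoters, E2F letters stood in 8 of 18 S-phase genes (44.4%) and 1 of 20 mitotic genes (5%), which was Cdk1, against 2.32% of all 27025 promoters. CHR letters stood in 2 of 18 S-phase genes (11.1%) and 16 of 20 mitotic genes (80%), against 19.4% of all promoters. CCAAT letters stood in 10 of 18 S-phase genes (55.6%) and 18 of 20 mitotic genes (90%), against 37.9% of all promoters. The 16 mitotic promoters with CHR letters all held CCAAT letters too, a combination found in 7.7% of all promoters. A match is a description of the letters and does not show that a factor binds there.

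The depth of the libraries, as the sum of gene counts in units of 1e6, was 17.6 to 23.8 (median 20.2). The 46 genes took 14317 to 46637 counts of a library, or 0.0714% to 0.215% of its gene counts. Levels below are CPM, counts per 1e6 counts of the library after TMM scaling. Tnfaip3 stood at 167 to 474 CPM in the KO libraries and 486 to 1647 CPM in the WT libraries. Itgax, which encodes CD11c, ranged over 146 to 379 CPM among CD11c+ libraries against 1.25 to 50.3 CPM among CD206+ libraries, and Mrc1, which encodes CD206, over 401 to 722 CPM against 1290 to 2147 CPM. In the CD206+ WT HFD libraries Itgax was at 20.7 to 50.3 CPM, above all other CD206+ libraries. A module level, the mean of log2(CPM + 1) over the genes of a phase, is used only as a description.

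Both phases stood highest in the CD11c+ groups and lowest in CD206+ cells other than those of WT mice on HFD. The S-phase level was 5.27 ± 0.27 in CD11c+ KO SD, 5.18 ± 0.11 in CD11c+ KO HFD, 5.05 ± 0.12 in CD11c+ WT HFD and 4.87 ± 0.15 in CD11c+ WT SD (SD, n = 4 each). It was 4.66 ± 0.16 in CD206+ WT HFD, 4.24 ± 0.16 in CD206+ KO HFD, 4.19 ± 0.19 in CD206+ KO SD and 3.97 ± 0.17 in CD206+ WT SD. In that order the library ranges of neighbouring groups overlapped, except between CD206+ WT HFD, whose lowest library was at 4.53, and CD206+ KO HFD, whose highest was at 4.45. The mitotic level ran from 4.30 to 4.63 in the CD11c+ group means and was 3.93 ± 0.34 in CD206+ WT HFD, 3.30 ± 0.39 in CD206+ WT SD, 3.30 ± 0.23 in CD206+ KO HFD and 3.12 ± 0.28 in CD206+ KO SD. The highest mitotic level of the CD206+ WT HFD group was that of replicate 1 at 4.37, with the others at 4.01, 3.61 and 3.72. In CD206+ WT SD it was that of replicate 2 at 3.87, with the others at 3.21, 2.99 and 3.14. The S-phase and mitotic levels moved together over the 32 libraries (r = 0.92), which share groups and depth, and with group means removed r was 0.56.

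**Figure D1:**
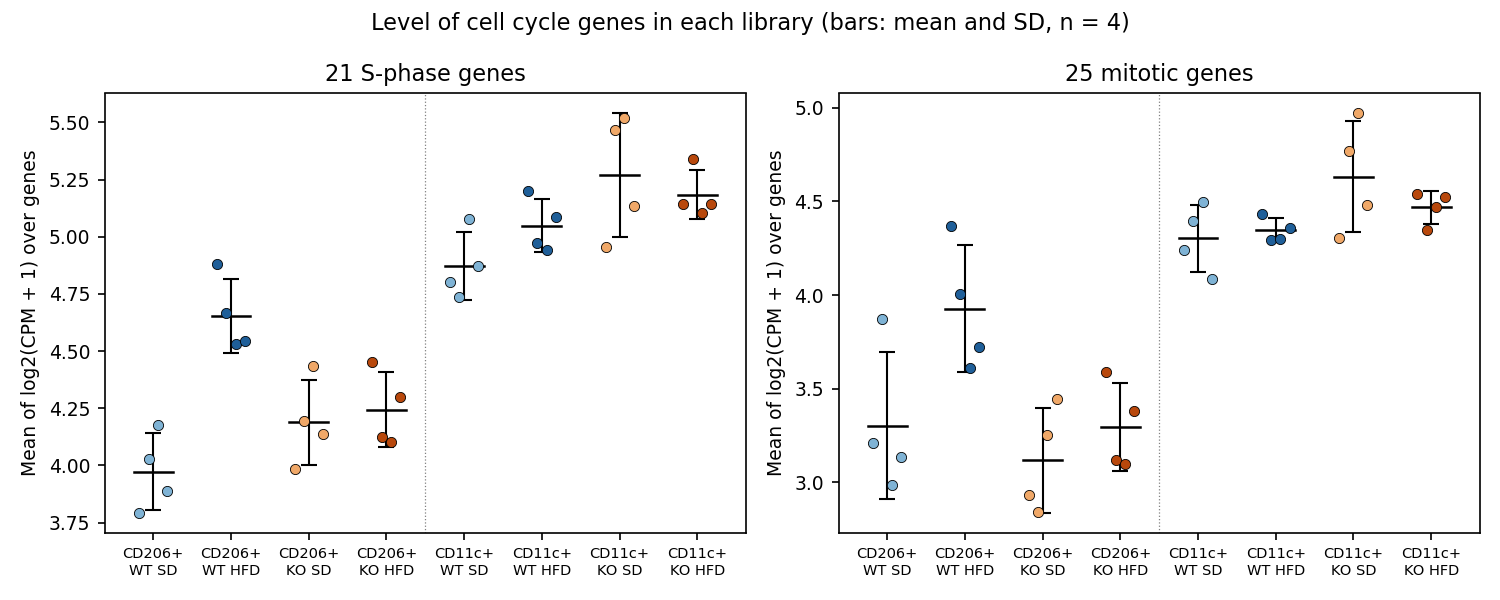
Mean of log2(CPM + 1) over the 21 S-phase genes (left) and the 25 mitotic genes (right) for each library, by group. Points are libraries, lines and bars the mean and SD of 4, and the dotted line parts CD206+ from CD11c+ groups. CD206+ WT HFD is the highest CD206+ group in both panels, at 4.66 and 3.93.

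Per kilobase of exon, the most abundant of the 46 was Pcna, the sliding clamp of replicating polymerases, at a mean of 46.7 CPM per kb over all libraries. The helicase subunits Mcm6, at 25.2 CPM per kb, and Mcm3, at 24.6, followed. Exon length here is every exon base of all GENCODE transcripts of a gene, and the annotation used for counting is not known. The order therefore depends on these lengths. Among mitotic genes Ccnb2 (cyclin B2) led with 15.3 CPM per kb, and the kinetochore genes Cenpe, at 0.839, and Cenpf, at 0.321, were the lowest of their phase. For 7 genes more than 10% of the exon bases are shared with another annotated gene, up to 67.3% in Gins2, a subunit of the replicative helicase. The others are Kif20a (29.3%), Ube2c (22.8%), Ccne2 (17.4%), Mcm7 (12.6%), Ccna2 (12.5%) and Prc1 (11.1%). Values of all 7, here and below, are uncertain where the counting could split reads.

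**Figure D2:**
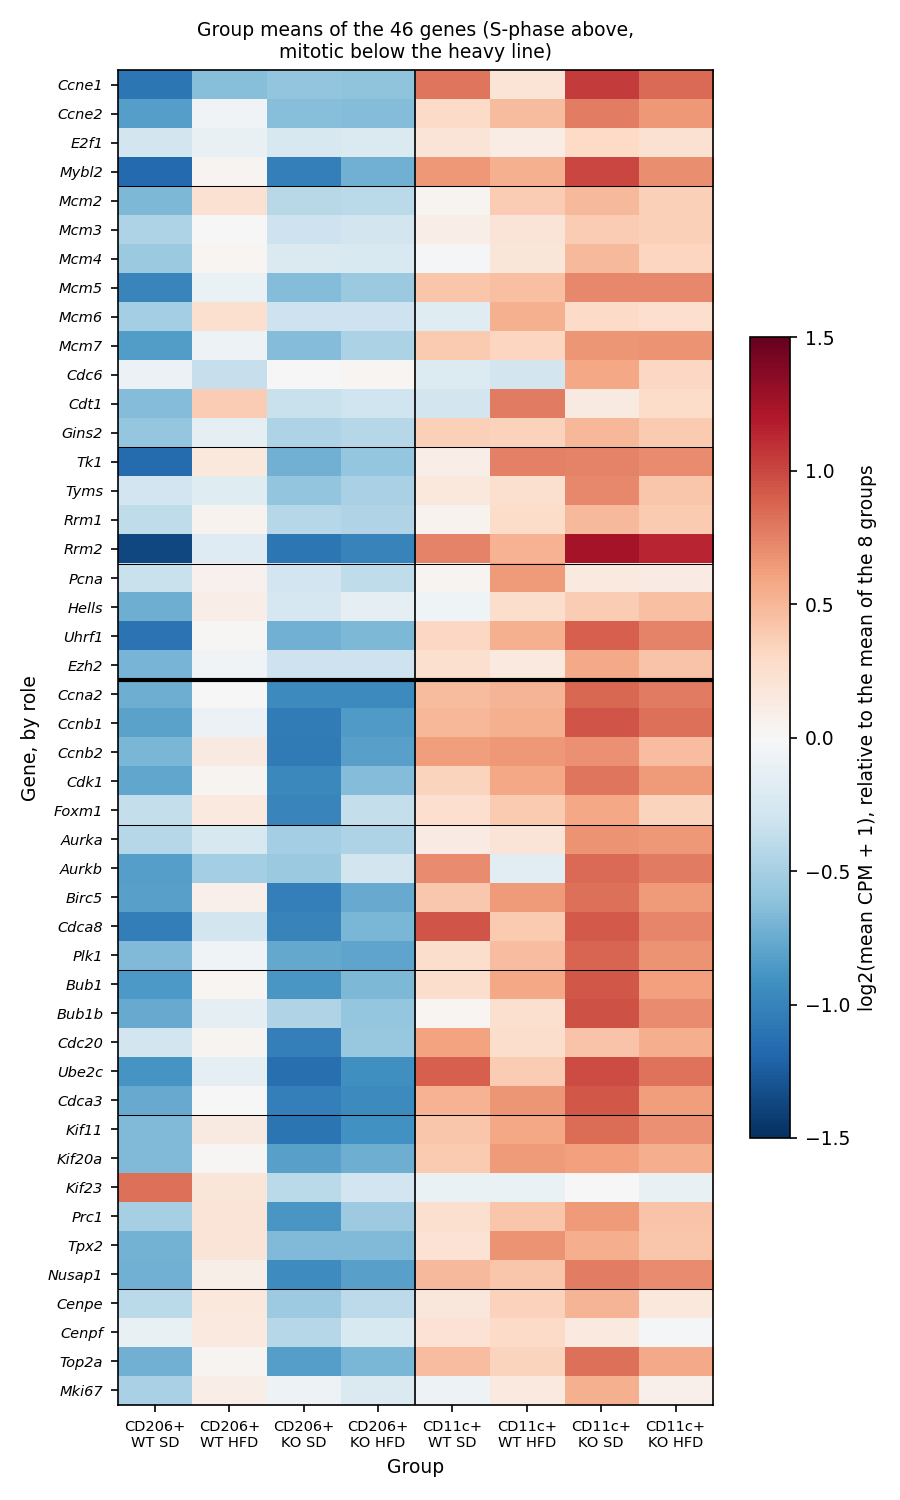
Group means of the 46 genes as log2(mean CPM + 1), centred on each gene's mean over the 8 groups, with rows by role and S-phase above mitotic genes. Red marks values above and blue values below the gene's own mean. Most rows are red in the 4 CD11c+ columns on the right, and Kif23 is highest in CD206+ WT SD.

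The first comparison asked how the populations differ. On SD and in KO mice nearly every cell cycle gene was higher in CD11c+ than in CD206+ cells, while in WT mice on HFD the difference was smaller. In WT mice on SD 41 of 46 genes were higher in CD11c+ cells, where 30.2% of all genes tested were, and 1 was lower, where 33.5% were, by edgeR's quasi-likelihood test with Benjamini-Hochberg adjustment. In KO mice 40 of 46 were higher on HFD, against 23.3% of all genes, and 44 on SD, against 25.6%. None was lower in KO mice, where 22.5% of all genes on HFD and 26.1% on SD were; DESeq2 called 40 and 45 of the 46 in these comparisons, and an unadjusted p under 0.05 was reached by 41 and 46. In WT mice on HFD 12 were higher, against 11.7% of all genes, and none was lower, against 8.7%. There DESeq2 called 14, and 29 had an unadjusted p under 0.05.

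Rrm2, the small subunit of ribonucleotide reductase, had among the widest differences. Its 4 libraries stood at 47.8, 54.9, 69.3 and 40.3 CPM in CD11c+ WT SD and at 7.6, 13.5, 15.9 and 9.11 CPM in CD206+ WT SD, and its log2 difference was 2.20 ± 0.25 (SE, adjusted p = 8.3e-09). In KO mice the log2 difference of Rrm2 was 2.21 ± 0.24 on HFD and 2.42 ± 0.24 on SD, and in WT mice on HFD 0.74 ± 0.23. The CD11c+ libraries stood entirely above the CD206+ libraries in all 4 comparisons for Rrm2. Mybl2, which encodes B-Myb, in WT mice on SD averaged 9 ± 2.12 CPM for CD11c+ against 1.85 ± 0.668 CPM for CD206+ cells (SD, n = 4), a log2 difference of 2.27 ± 0.24. Ccne1, which encodes cyclin E1, differed by 2.26 ± 0.21 on the log2 scale in the same comparison and by 1.00 ± 0.20 in WT mice on HFD.

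Of the 41 genes higher in CD11c+ cells of WT mice on SD, 21 were mitotic and 20 S-phase genes. In WT mice on SD all 5 genes of the spindle checkpoint and anaphase promotion were higher in CD11c+ cells, including Ube2c, the ubiquitin-conjugating enzyme of the anaphase-promoting complex, at a log2 difference of 1.91 ± 0.25. All 5 of the mitotic kinase and passenger complex group were higher too, with Cdca8 (borealin) at 2.12 ± 0.21 and Aurkb, which encodes Aurora B, among them. In KO mice Ccna2, which encodes cyclin A2, was at 46.1, 44.6, 43.6 and 39.1 CPM in CD11c+ HFD and at 14.3, 10.4, 11.2 and 13.5 CPM in CD206+ HFD libraries. These libraries did not overlap, and the log2 difference of Ccna2 was 1.81 ± 0.20 (adjusted p = 4.1e-08). Over the 46 genes the median log2 difference was 1.05 in WT SD, 0.46 in WT HFD, and 1.21 in KO HFD, and in KO SD it was 0.96 over the S-phase and 1.74 over the mitotic genes, beside medians of all genes between -0.06 and 0. In 12 genes, namely Bub1, Ccnb2, Ccne1, Cdca3, Cdca8, Cdt1, Gins2, Kif20a, Mcm5, Pcna, Rrm2 and Tk1, CD11c+ cells were higher in all 4 comparisons. These are the same 12 that were called higher in WT mice on HFD, so the list moves with that count. The share of all genes higher in all 4 comparisons is not given here.

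The smaller count in WT mice on HFD depended on the setting. With the replicate number as a block, 25 genes were higher there, where 29.1% of all genes were called in either direction. Without TMM factors 5 were called, and leaving out 1 library at a time gave between 5 and 22. It was 5 without CD11c+ WT HFD replicate 1 or without CD206+ WT HFD replicate 3 or 4, 6 without CD206+ WT HFD replicate 2, 7 without CD11c+ WT HFD replicate 3 and 22 without CD206+ WT HFD replicate 1. The CD11c+ WT SD libraries also differed from the rest in the sum of their macrophage markers. Its 8 genes summed to 31537 to 35744 CPM there against 16198 to 23565 CPM in all other libraries. This holds for the sum and not for each gene. Most of the called markers were lower in CD11c+ WT SD than in CD11c+ KO SD or CD11c+ WT HFD, as given below. Other marker sums differed between the populations too. The monocyte sum was lower in CD11c+ cells, without overlap, in every population comparison. In WT SD it was 2793 to 3731 CPM against 5683 to 7154 CPM. The T and NK cell sum in WT SD was 146 to 217 CPM in CD11c+ against 25.6 to 36.1 CPM in CD206+ cells. Its ranges overlapped in the other comparisons. The adipocyte sum in WT SD was 44.6 to 83.4 CPM against 351 to 435 CPM. The part of these markers in the population difference was not tested.

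Diet changed the cell cycle genes of CD206+ cells in WT mice. On HFD 34 of 46 genes were higher than on SD, where 14.2% of all genes were higher, and 1 was lower, where 13.5% were. The 34 were 17 of 21 S-phase and 17 of 25 mitotic genes, and the median log2 change of the 46 was 0.76, beside -0.02 over all genes. In KO mice the same diet contrast in CD206+ cells called none of the 46 and none of all genes (0% in either direction). There edgeR gave an unadjusted p under 0.05 for 2 of the 46, Cdc20 and Foxm1, and DESeq2 called 0 of the 46 and 18 of all genes. The median log2 change in KO mice was 0.10, with a median SE of 0.217 per gene, and the single changes lay between -0.14 and 0.72.

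Among the S-phase genes of CD206+ WT cells, all 4 genes of the clamp and chromatin group, 8 of 9 licensing and helicase genes and 3 of 4 deoxynucleotide genes rose. Tk1, cytosolic thymidine kinase, was at 28.6, 24.8, 20.8 and 15.8 CPM on HFD against 7.98, 10.7, 9.23 and 6.16 CPM on SD. Every HFD library stood above every SD library of Tk1, and its log2 change was 1.40 ± 0.22 (SE, adjusted p = 1.7e-05). In KO mice Tk1 was at 18.4, 11.9, 9.08 and 12.8 CPM on HFD against 8.87, 10.6, 16.7 and 10.9 CPM on SD, so the diets overlapped. Cdt1, the licensing factor that loads MCM helicase, was at 21, 21.4, 20.2 and 22.9 CPM in WT HFD and 7.12, 10.8, 11.8 and 9.98 CPM in WT SD, a log2 change of 1.10 ± 0.15 (adjusted p = 2.1e-06). Mybl2 rose by a log2 change of 1.58 ± 0.24, Rrm2 by 1.23 ± 0.24, Uhrf1, which couples DNA methylation to replication, by 1.18 ± 0.22, and Mcm5 by 0.91 ± 0.18. Pcna rose by 0.40 ± 0.10, from 86.7 ± 3.57 CPM to 114 ± 8.51 CPM (SD, n = 4). E2f1, an activator of S-phase genes, was at 44.2 ± 3.39 CPM on HFD against 39.4 ± 3.16 CPM on SD and did not pass (log2 change 0.16 ± 0.12).

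Of the mitotic genes 17 of 25 rose. The HFD libraries of WT CD206+ cells stood entirely above the SD libraries for 16 of 21 S-phase genes and 3 of 25 mitotic genes. The share of all genes that stood apart in this way is not given here, so these counts are only a description. Bub1, a spindle checkpoint kinase, was one of the 3, with 9.13, 7.4, 6.27 and 5.7 CPM on HFD against 3.68, 3.33, 3.33 and 3.16 CPM on SD (log2 change 1.08 ± 0.23, adjusted p = 8e-04). Cdk1, the kinase that drives mitotic entry, was at 21.9, 19.6, 11.2 and 11.4 CPM on HFD against 6.93, 14.1, 5.9 and 7.47 CPM on SD, with a log2 change of 0.89 ± 0.26. Here SD replicate 2 reached into the HFD range. Top2a (DNA topoisomerase 2-alpha) rose by 0.78 ± 0.24, Ccnb1 (cyclin B1) by 0.77 ± 0.25, Tpx2, a spindle assembly factor, by 0.98 ± 0.24 and Birc5 (survivin) by 0.96 ± 0.25. Mki67, the Ki-67 gene, was at 35 ± 6.74 CPM on HFD against 23 ± 8.15 CPM on SD and did not pass (log2 change 0.61 ± 0.30, adjusted p = 0.14), nor did Foxm1 (0.55 ± 0.22, adjusted p = 0.063).

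Without CD206+ WT HFD replicate 1 the diet contrast called 24 of 46 genes in place of 35, 15 S-phase and 9 mitotic. With that library and CD206+ WT SD replicate 2 both left out, the libraries with the highest mitotic level of their groups, it called 14 S-phase and 18 mitotic genes higher and 1 gene lower, where 18.7% of all genes were called in either direction. In the same contrast Itgax was higher on HFD, as were 9 of 12 stromal markers (summed level 1167 to 3118 CPM on HFD against 825 to 1454 CPM on SD), 8 of 10 adipocyte markers were lower (57.9 to 115 CPM and 351 to 435 CPM) and 12 of 15 immediate early genes were lower. The monocyte markers summed to 2393 to 2773 CPM on HFD against 5683 to 7154 CPM on SD. The dendritic cell sum was 369 to 447 CPM on HFD against 882 to 1013 CPM on SD. For T and NK cell markers it was 9.08 to 18.4 CPM against 25.6 to 36.1 CPM. The mast cell sum was higher on HFD, at 22.9 to 127 CPM against 4.49 to 13.7 CPM. CD206+ WT HFD replicate 1, the library with the highest mitotic level, had the lowest Itgax (20.7 CPM) and the lowest stromal sum (1167 CPM) of its group. The part of these markers in the result was not tested.

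The test of whether the change with diet differed between the genotypes called 10 S-phase genes and 1 mitotic gene in CD206+ cells. The interaction, the KO diet change minus the WT diet change on the log2 scale, passed for 11 of 46 genes in CD206+ cells, where 11.9% of all genes passed. The 10 with a smaller change in KO were all S-phase genes: Tk1 (-1.25 ± 0.31), Mybl2, Rrm2, Uhrf1, Cdt1 (-1.07 ± 0.21), Mcm2 (-0.91 ± 0.23), Mcm5, Mcm6 (-0.75 ± 0.18), Mcm4 and Pcna. Mcm6 was at 151, 134, 118 and 137 CPM in WT HFD and 68.2, 69.9, 92.2 and 89.3 CPM in WT SD, against 99.2, 80.1, 93.5 and 95.5 CPM in KO HFD and 77.6, 97.4, 107 and 84.6 CPM in KO SD. All WT HFD libraries of Mcm6 lay above those of the other CD206+ groups, which overlapped one another. The count was 7 without CD206+ WT HFD replicate 1, CD206+ KO HFD replicate 2 or CD206+ KO SD replicate 3, and 21 without CD206+ WT SD replicate 2. With CD206+ WT HFD replicate 1 and CD206+ WT SD replicate 2 both left out it was 9, where 7.46% of all genes passed, and the genes with a smaller change in KO were then 5 S-phase and 3 mitotic genes.

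**Figure D3:**
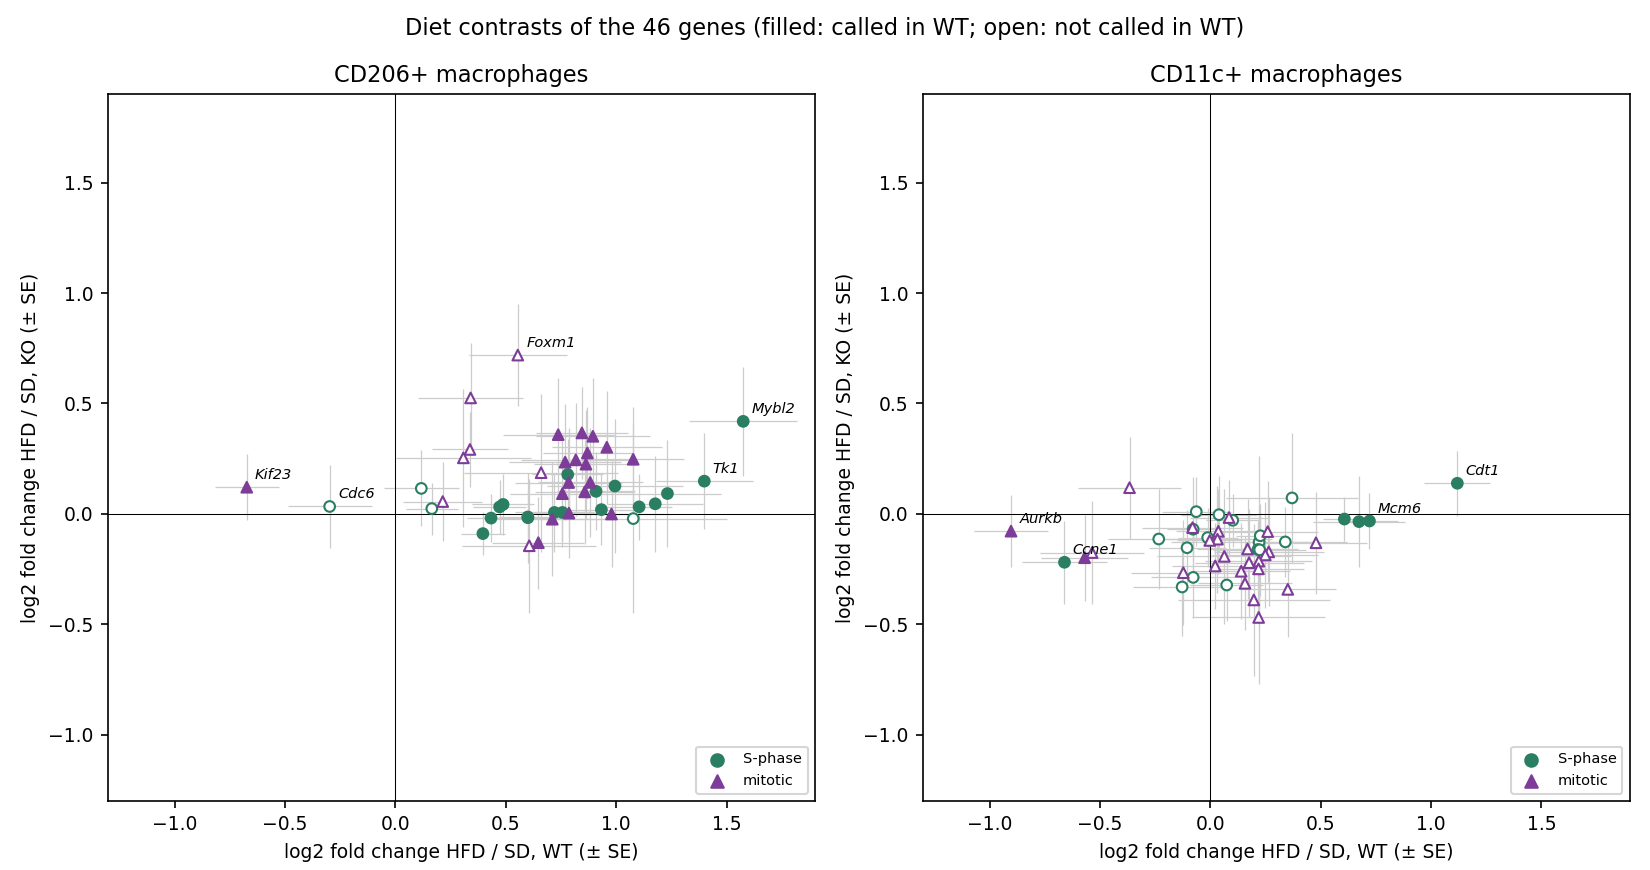
Log2 change between HFD and SD of each of the 46 genes in WT mice (x axis) and KO mice (y axis), for CD206+ cells (left) and CD11c+ cells (right). Circles are S-phase and triangles mitotic genes, filled where the WT change passed the test, and grey bars are ± 1 SE. In CD206+ cells 34 filled points lie to the right of 0 in WT mice, while the KO changes lie between -0.14 and 0.72.

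On HFD the cell cycle genes of CD206+ cells were lower in KO than in WT mice. Of the 46 genes 26 were lower, against 11.3% of all genes, and none was higher, against 10.5% of all genes, by edgeR. In this comparison DESeq2 called 27, and 36 had an unadjusted p under 0.05. The median log2 difference was -0.65, beside 0 over all genes, and -0.79 for the mitotic genes against -0.44 for the S-phase genes. This comparison shares the CD206+ WT HFD libraries with the WT diet contrast above, so neither list of genes is independent of the other.

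Mitotic genes made up 17 of the 26. All 6 kinesins and spindle proteins were lower in KO, as were 4 of the 5 mitotic cyclin, Cdk1 and Foxm1 genes. Kif11, the kinesin that pushes spindle poles apart, was at 7.07, 6.49, 6.03 and 7.95 CPM in KO and 20.3, 15.3, 13.3 and 12.1 CPM in WT, without overlap (log2 difference -1.15 ± 0.24, adjusted p = 5.8e-04). Ccna2 was at 14.3, 10.4, 11.2 and 13.5 CPM in KO and 34.9, 22.8, 20.8 and 21.1 CPM in WT, also without overlap (-1.01 ± 0.20, adjusted p = 3.2e-04). Cdca3, a mitotic entry factor, differed by -1.10 ± 0.23, Ccnb2 by -1.01 ± 0.20 and Nusap1, a spindle microtubule protein, by -0.99 ± 0.24. Cdk1 (-0.75 ± 0.26), Ccnb1 (-0.82 ± 0.26) and Top2a (-0.75 ± 0.24) were lower with overlapping libraries.

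Among the 9 S-phase genes lower in KO, Mybl2 had the largest difference (-0.95 ± 0.23), followed by Rrm2 (-0.85 ± 0.24), Tk1 (-0.79 ± 0.21), Cdt1 (-0.72 ± 0.15) and Uhrf1 (-0.72 ± 0.21). Pcna was at 93.6, 81, 69.1 and 91.7 CPM in KO and 124, 114, 103 and 116 CPM in WT (-0.44 ± 0.10, adjusted p = 0.0012). No KO library reached the lowest WT library of Pcna. Mki67 was at 27.8 ± 5.62 CPM in KO and 35 ± 6.74 CPM in WT and did not pass (-0.34 ± 0.30), nor did Foxm1 (-0.56 ± 0.22, adjusted p = 0.072), E2f1 (-0.10 ± 0.12) or Mcm5.

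Without CD206+ WT HFD replicate 1 the count of genes lower in KO fell from 26 to 15, 7 S-phase and 8 mitotic, with a median of -0.50. With CD206+ WT SD replicate 2 left out as well it was 19, where 18% of all genes were called in either direction. In this comparison Itgax and 12 of 12 stromal markers were lower in KO (stromal sum 634 to 821 CPM against 1167 to 3118 CPM), and 7 of 9 tested T and NK cell markers (82.2 to 157 CPM against 9.08 to 18.4 CPM), 5 of 9 monocyte markers (4051 to 4842 CPM against 2393 to 2773 CPM) and 8 of 10 adipocyte markers were higher. None of these marker genes was at 0 in all 4 libraries of either group, and their part in the result was not tested.

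**Figure D4:**
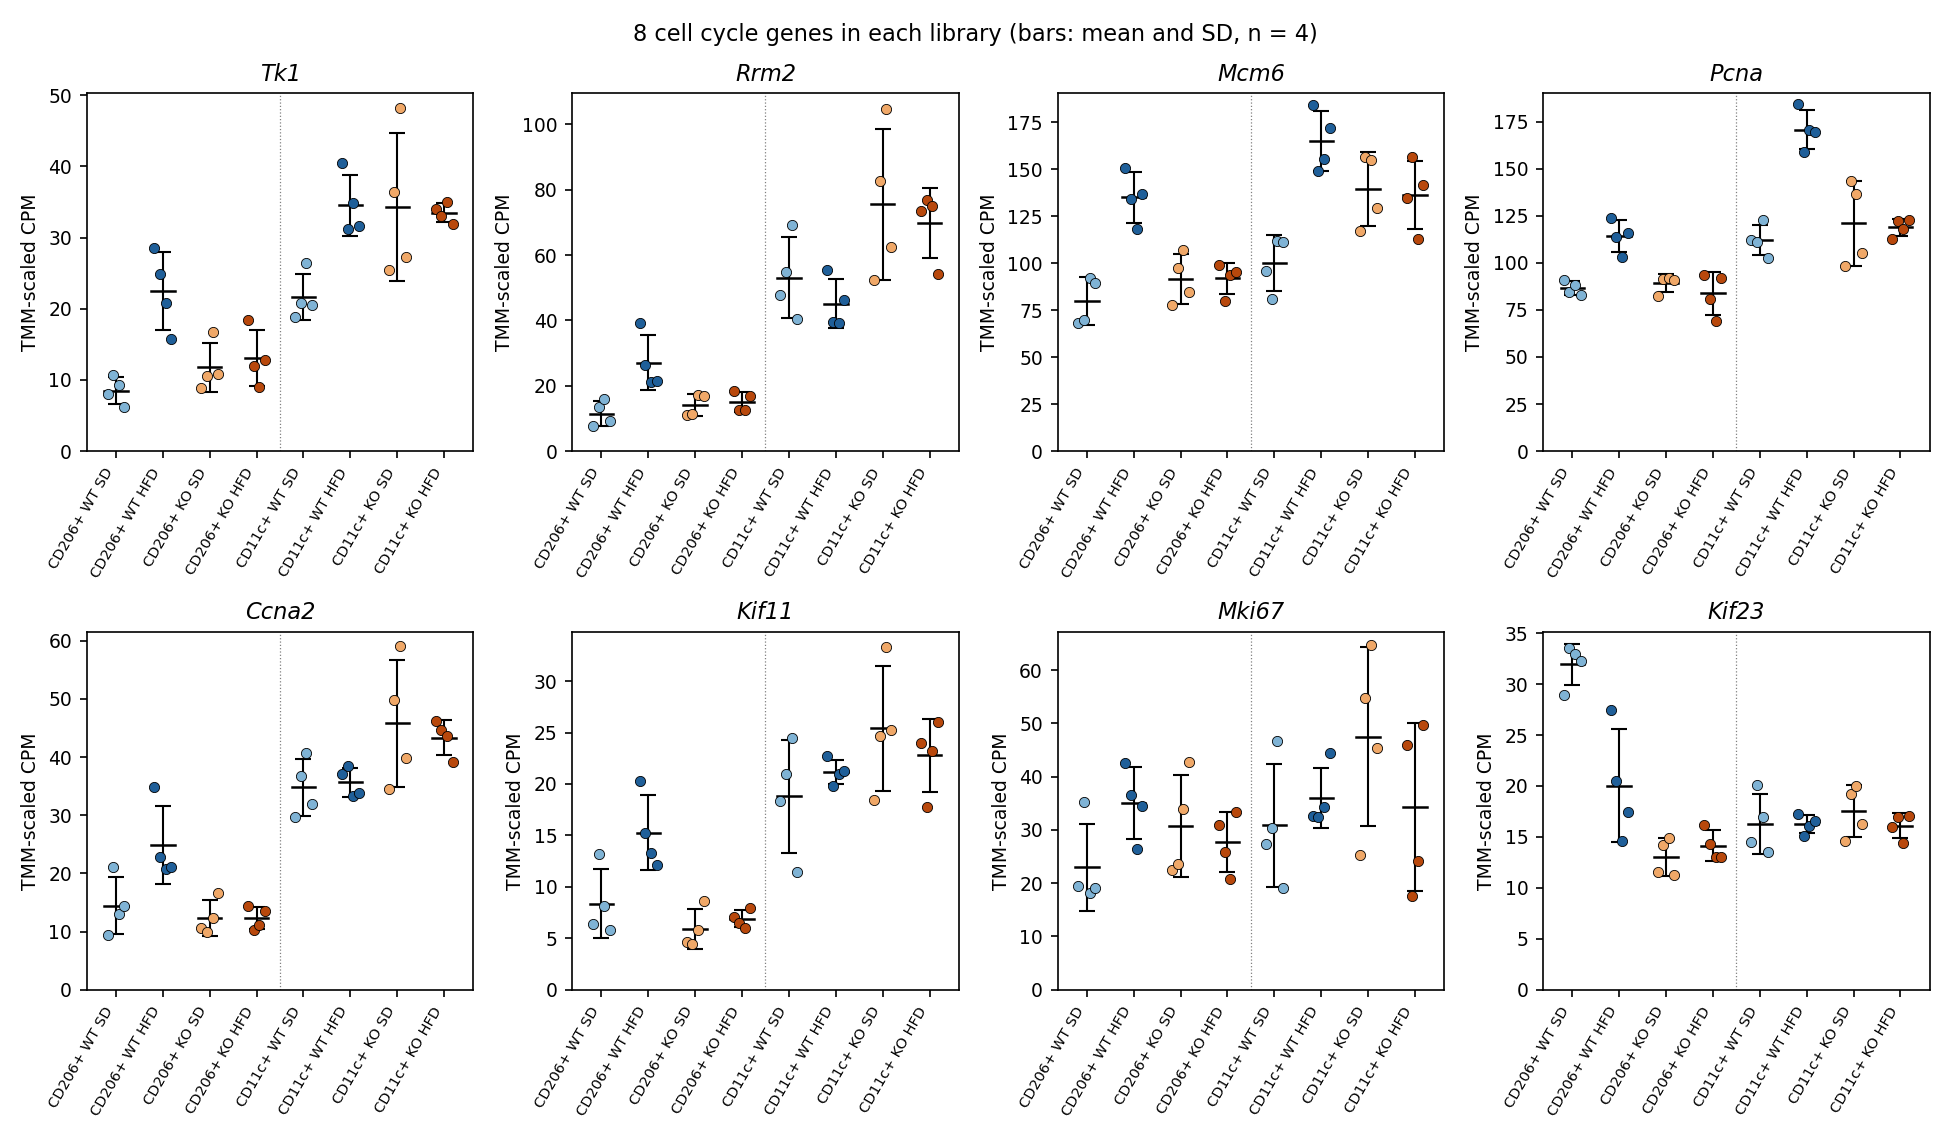
CPM of 8 cell cycle genes in each library, by group: S-phase genes in the top row and mitotic genes in the bottom row, on linear axes from 0. Points are libraries, lines and bars the mean and SD of 4. In CD206+ cells Tk1, Rrm2, Mcm6, Pcna, Ccna2 and Kif11 are highest in WT HFD, while Kif23 is highest in WT SD.

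The knockout did not lower cell cycle genes in CD11c+ cells on HFD by count. There 5 of 46 were higher in KO, against 18.6% of all genes, and 2 were lower, against 19.4%, shares at or below those of all genes. Aurkb was at 45.7, 50.3, 46.7 and 39 CPM in KO and 23.6, 24.2, 22.9 and 21.8 CPM in WT (log2 difference 0.98 ± 0.17, adjusted p = 2.8e-05). The 2 sets of Aurkb values did not overlap. Ccne1 (0.72 ± 0.19), Cdc6, which loads MCM proteins (0.66 ± 0.19), Rrm2 (0.63 ± 0.23) and Aurka (0.49 ± 0.17) were also higher, and Cdt1 (-0.53 ± 0.15) and Pcna (-0.52 ± 0.10) lower. The log2 difference of Mki67 was -0.07 ± 0.30 and that of Top2a 0.23 ± 0.24. In the same comparison 8 of 9 monocyte markers were higher in KO (2022 to 2617 CPM against 594 to 802 CPM), as were 8 of 9 tested T and NK cell markers, and 11 of 12 stromal markers were lower, and their part in the result was not tested. The genotype difference itself differed between the populations on HFD for 9 genes, against 4.36% of all genes: Rrm2, Ube2c, Nusap1, Ccna2, Kif11, Mybl2, Cdca3, Mcm7 and Rrm1. In each of the 9 the KO to WT difference was more positive in CD11c+ cells, by 1.48 ± 0.33 for Rrm2 and 1.30 ± 0.28 for Ccna2 on the log2 scale. That count was 20 with the replicate block, where 8.99% of all genes were called, 14 by DESeq2 and 18 with the spread taken from these 4 groups alone. It was 3 without CD206+ WT HFD replicate 1 and 4 without CD206+ KO HFD replicate 2 or 3.

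On SD the genotypes differed in another way. In CD11c+ cells 13 of 46 genes were higher in KO, where 13.2% of all genes were, and none was lower, where 13.6% were. In this comparison DESeq2 called 13, 18 had an unadjusted p under 0.05, and the median log2 difference of the 46 was 0.40, beside -0.02 over all genes. Bub1b, the checkpoint protein BubR1, was at 31.7, 42.4, 53.4 and 45.9 CPM in KO and 17.6, 24.4, 21.7 and 26.3 CPM in WT (0.95 ± 0.20, adjusted p = 7.2e-04). Cdc6 was at 9.86, 14.3, 15.7 and 10.8 CPM in KO and 4.64, 6.37, 9.68 and 7.04 CPM in WT (0.88 ± 0.19, adjusted p = 7.6e-04). For Bub1b and Cdc6 alike no WT library reached the lowest KO library. Bub1 (0.72 ± 0.22), Tk1 (0.66 ± 0.21), Plk1 (0.66 ± 0.24), Uhrf1 (0.60 ± 0.21), Tyms, thymidylate synthase (0.60 ± 0.17), Aurka (0.59 ± 0.17) and Mcm4 (0.52 ± 0.13) were among the rest. The count was 7 without CD11c+ KO SD replicate 3 and 8 without CD11c+ KO SD replicate 2, the libraries with the highest mitotic levels of that group, and 8 without CD11c+ WT SD replicate 1. In this comparison the macrophage markers summed to 18624 to 21682 CPM in KO against 31537 to 35744 CPM in WT (4 of 8 higher and 1 lower in KO), the T and NK cell markers to 76.6 to 105 CPM against 146 to 217 CPM (4 of 9 tested higher and 1 lower), and 6 of 10 endothelial markers were lower in KO. The part of these markers in the result was not tested. In CD206+ cells on SD 2 of 46 were higher in KO, Ccne1 (0.66 ± 0.21) and Mcm4 (0.35 ± 0.13), against 11.8% of all genes. In the same cells 3 were lower, against 12.7% of all genes: Kif23, Cdc20, which activates the anaphase-promoting complex (-0.85 ± 0.25), and Foxm1 (-0.72 ± 0.23). Of these 5, 1 was left without CD206+ KO SD replicate 2, 3 without CD206+ WT SD replicate 2 and 3 with the spread taken from these 2 groups alone. There 6 of 9 tested T and NK cell markers were higher in KO (103 to 170 CPM against 25.6 to 36.1 CPM) and 9 of 10 endothelial markers lower, and their part in the result was not tested. The genotype difference on SD differed between populations for 3 genes, against 6.57% of all genes: Kif23 (1.40 ± 0.21), Foxm1 (1.07 ± 0.32) and Tyms (0.94 ± 0.24). That count was 6 with the replicate block, where 12% of all genes were called, 5 without CD11c+ KO SD replicate 1 or CD11c+ WT SD replicate 3 and 1 without CD11c+ KO SD replicate 2.

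In CD11c+ cells diet moved few cell cycle genes, and in both directions. In WT mice 4 of 46 were higher on HFD, against 23.8% of all genes, and 3 were lower, against 22.6%. The 4 were S-phase genes: Cdt1 (1.12 ± 0.15), Mcm6 (0.72 ± 0.13), Tk1 (0.67 ± 0.21) and Pcna (0.61 ± 0.10). Cdt1 was at 27.5, 24.4, 27.8 and 34.6 CPM on HFD against 11.2, 11.7, 13.5 and 16.4 CPM on SD, without overlap. Pcna was at 184, 159, 170 and 169 CPM on HFD against 112, 111, 123 and 103 CPM on SD, also without overlap. The genes lower on HFD were Aurkb (-0.90 ± 0.17), Ccne1 (-0.66 ± 0.19) and Cdca8 (-0.57 ± 0.20). The macrophage markers summed to 20678 to 23565 CPM on HFD (5 of 8 higher and 3 lower) against the high SD range given above. Of the stromal markers 10 of 12 were higher on HFD. The T and NK cell sum was 11.8 to 19.9 CPM on HFD against 146 to 217 CPM on SD. For monocyte markers it was 594 to 802 CPM against 2793 to 3731 CPM. The dendritic cell sum was 170 to 284 CPM against 494 to 831 CPM. For immediate early genes it was 8303 to 10009 CPM against 16576 to 22720 CPM. The mast cell sum was higher on HFD, at 16 to 46 CPM against 1.95 to 5.93 CPM. The part of all these markers in the result was not tested. In KO mice none of the 46 was called in CD11c+ cells, against 0.00743% of all genes higher and 0% lower, by edgeR. There DESeq2 also called 0 of the 46, and none had an unadjusted p under 0.05. The single log2 changes lay between -0.47 and 0.14 with a median SE of 0.208.

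The interaction of genotype with diet in CD11c+ cells passed for 4 genes, against 28.8% of all genes: Cdt1 (-0.98 ± 0.21), Mcm6 (-0.75 ± 0.18) and Pcna (-0.63 ± 0.14) changed less with diet in KO. The fourth was Aurkb, with an interaction of 0.82 ± 0.23, whose diet change was -0.90 ± 0.17 in WT and -0.08 ± 0.16 in KO mice. That count was 7 without CD11c+ KO SD replicate 1. Cdt1, Mcm6 and Pcna thus passed the interaction in both populations, with the smaller change in KO each time. The diet change of WT mice differed between the populations for 17 of 46 genes, a share near that of all genes (32.4% in either direction). In 16 of them it was more positive in CD206+ cells, led by Mybl2 (-1.70 ± 0.33, CD11c+ minus CD206+), Rrm2 (-1.47 ± 0.33), Cdca8 (-1.41 ± 0.29), Ccne1 (-1.26 ± 0.28) and Aurkb (-1.24 ± 0.24), and Kif23 was the exception. The shares of all genes by direction are not given here. The count of 17 was 11 without CD206+ WT HFD replicate 1. In KO mice no gene passed this difference (0% of all genes), by edgeR and by DESeq2, and 2 of the 46, Foxm1 and Mybl2, had an unadjusted p under 0.05.

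A few genes stood apart from their phase. Kif23, a kinesin of the central spindle needed for cytokinesis (chr9:61917277-61946810, minus strand, RefSeq on GRCm38.p6), was at 29, 33.5, 33 and 32.2 CPM in CD206+ WT SD. It was at 27.5, 20.5, 14.6 and 17.4 CPM in CD206+ WT HFD and between 11.3 and 20.1 CPM in the libraries of the other 6 groups. No other library reached the lowest CD206+ WT SD library of Kif23. Thus Kif23 was lower on HFD than on SD in CD206+ WT cells (-0.67 ± 0.14, adjusted p = 7.7e-04), lower in KO than in WT on SD (-1.29 ± 0.15, adjusted p = 1.1e-07) and lower in CD11c+ than in CD206+ cells of WT mice on SD (-0.97 ± 0.15, adjusted p = 1.5e-06). These contrasts share the CD206+ WT SD libraries. Over the 32 libraries its correlation with the mitotic level was r = -0.01, where the median mitotic gene had 0.95, and with group means removed it was 0.56. Its exons share no bases with another annotated gene, and its promoter holds both CHR and CCAAT letters, as do 16 of 20 matched mitotic promoters.

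Mki67 and Cenpf were the only 2 of the 46 not called higher in CD11c+ cells in any of the 4 population comparisons without the replicate block. With the block all 46, these included, were higher in KO mice on SD, where 56.3% of all genes were called in either direction. Mki67 stood at 30.9 ± 11.6 CPM in CD11c+ WT SD, 36 ± 5.67 CPM in CD11c+ WT HFD, 47.5 ± 16.8 CPM in CD11c+ KO SD and 34.3 ± 15.8 CPM in CD11c+ KO HFD (SD, n = 4). In CD206+ cells it stood at 23 ± 8.15 CPM in WT SD, 35 ± 6.74 CPM in WT HFD, 30.7 ± 9.6 CPM in KO SD and 27.8 ± 5.62 CPM in KO HFD. The libraries of CD11c+ KO HFD alone ran from 17.6 to 49.6 CPM, and the SE of its log2 differences was 0.30, against a median of 0.21 to 0.22 over the 46 genes in comparisons of 2 groups. Its correlation with the mitotic level was 0.60, and that of Cenpf 0.64. Among S-phase genes Cdc6 was the least tied to its phase (r = 0.35, where the median S-phase gene had 0.91), and in CD206+ WT cells it stood at 6.17 ± 0.58 CPM on HFD against 7.58 ± 0.846 CPM on SD. Uhrf1 and Birc5 had the highest correlation with their own phase, 0.99 and 0.98.

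Other genes of the cycle, from lists that exclude the 46, were counted in the same comparisons. In CD206+ WT cells 22 of 52 tested further mitosis genes and 16 of 38 further replication and repair genes were higher on HFD, against 14.2% of all genes, and 1 of either list was lower, against 13.5%. Among them Pbk, a mitotic kinase, rose by a log2 change of 1.27 ± 0.30, Stmn1 (stathmin) by 1.06 ± 0.20 and Cdc45, a helicase subunit, by 1.06 ± 0.24. In CD206+ cells on HFD 24 of the 52 mitosis genes were lower in KO, against 11.3% of all genes, with Ttk, a checkpoint kinase, at -1.18 ± 0.33, and 2 were higher, against 10.5%. Of the 38 replication genes 4 were lower, a share near that of all genes, and none was higher. In CD11c+ cells on HFD 4 of 52 mitosis and 10 of 38 replication genes were higher in KO, against 18.6% of all genes, including Espl1 (separase) at 1.19 ± 0.16 and Cdc7, the kinase that fires origins, at 1.17 ± 0.25.

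Upstream of these genes, Ccnd2, which encodes cyclin D2, was higher in KO in all 4 comparisons of genotype. It stood at 162, 113, 75.2 and 109 CPM in CD11c+ KO HFD and 7.53, 19.9, 16.4 and 14.6 CPM in CD11c+ WT HFD, a log2 difference of 2.97 ± 0.24. In CD206+ cells on HFD it was at 49.1, 34.6, 34.6 and 52.9 CPM in KO and 9.99, 16.5, 14 and 8.93 CPM in WT, a log2 difference of 1.79 ± 0.24. On SD the log2 difference was 1.49 ± 0.23 in CD11c+ and 1.62 ± 0.23 in CD206+ cells. No KO library of Ccnd2 overlapped a WT library of the same population and diet. Cdk6 went the other way on HFD, lower in KO in CD11c+ (-0.76 ± 0.19) and CD206+ cells (-0.82 ± 0.18). On SD Cdk6 was higher in KO in CD11c+ cells (1.15 ± 0.20). Further genes of these lists were called, and counts over the lists are not given here, so the genes named are examples. Among inhibitors of cyclin-dependent kinases, Cdkn2b (p15) was lower in KO on HFD in CD11c+ (-1.36 ± 0.34) and CD206+ cells (-1.41 ± 0.36). It was also lower in KO in CD206+ cells on SD (-1.14 ± 0.40), at means of 0.614 CPM against 1.36 CPM. Cdkn2c (p18) was lower in KO in CD206+ cells on HFD (-0.51 ± 0.12) and SD (-0.66 ± 0.12). Cdkn1c was lower in KO in CD11c+ cells on HFD (-1.01 ± 0.19) and in CD206+ cells on SD (-1.29 ± 0.19). Spp1 was lower in KO on HFD in CD11c+ (-2.43 ± 0.47) and CD206+ cells (-4.25 ± 0.54). Ccl2 was higher in KO on HFD in CD11c+ (1.52 ± 0.21) and CD206+ cells (0.87 ± 0.20). Myc was lower in KO in CD206+ cells, at 30.4 ± 6.59 CPM against 52.2 ± 2.62 CPM on HFD (-0.78 ± 0.15) and at 30.6 ± 6.33 CPM against 71.7 ± 11 CPM on SD (-1.23 ± 0.15).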

How the data were processed

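Bulk RNA-seq of 32 libraries was used, grouped and numbered by the sample titles. The tools named, per the submitters' processing notes and without their roles, were TopHat2 2.1.0, SAMtools 0.1.18, Trimmomatic 0.35 and FastQC 0.11.4, with the mouse build mm10 (GRCm38). How reads were counted, with which annotation and strand setting, is not given in the sources used here. Deposited by the authors were raw read counts per gene symbol, 1 table per library. Entries naming no gene were kept out (5.16% to 11.1% of reads outside genes, 0.992% to 1.48% ambiguous). Replicates of a group differed by more than sampling noise.

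Counts were fitted with edgeR 4.0.16 in R 4.3.3: filterByExpr with a minimum count of 10, TMM scaling, and 1 quasi-likelihood fit of all 32 libraries with a mean per group. P-values were adjusted by Benjamini-Hochberg over 13453 genes per comparison, and an adjusted p under 0.05 is called. SE was taken as the log2 fold change divided by the square root of F. The fit was tested on simulated data. Alternatives were DESeq2 1.42.0 and other scalings, filters, spreads, blocks and left-out libraries. The choice of the 46 genes, the gene and marker lists, the letters searched and the tests was made with earlier results of these data known. Named throughout were Mki67, Top2a, Cdk1, Ccnb1, Foxm1, E2f1, Rrm2, Tk1, Mcm5 and Pcna. Added per comparison were up to 5 called genes of each phase with the largest change and at least 1 CPM, in interactions the 5 with the smallest p, up to 3 called genes of each further list, and genes called against the majority. Genes outside this rule, such as those apart from their phase, were chosen after their values were seen.

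Replicate numbers are shared across groups, and the labels do not say what they mark. In deviations from group means, same-numbered CD11c+ and CD206+ libraries correlated at 0.33 to 0.62 in WT HFD, 0.23 to 0.39 in WT SD and 0.22 to 0.36 in KO SD, and at -0.07 to 0.42 in KO HFD, so only the first 3 comparisons count as paired. Numbers did not pair libraries across genotype or diet.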

Additional observations from a re-analysis of the deposited data

Results flagged for a closer look

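In groups of 4, 1 library stood farther from the others than Dixon's 95% criterion allows in 6 of 96 groups of values examined, over the 10 genes named throughout and the module levels. Chance flags about 1 in 20 such groups. These were Mki67 at 44.4 CPM in CD11c+ WT HFD replicate 4 (above), Mki67 at 35.2 CPM in CD206+ WT SD replicate 2 (above), Top2a at 35.2 CPM in CD11c+ WT SD replicate 4 (below), Foxm1 at 13.6 CPM in CD206+ KO HFD replicate 1 (above), Rrm2 at 54.1 CPM in CD11c+ KO HFD replicate 4 (below) and Pcna at 82.3 CPM in CD206+ KO SD replicate 1 (below).

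The tests of a difference between differences passed for some genes. The diet change differed between genotypes for 4 genes in CD11c+ cells, a share below that of all genes (28.8%). These were Cdt1 at -0.98, Mcm6 at -0.75, Pcna at -0.63 and Aurkb at 0.82 (log2, KO minus WT). In CD206+ cells the diet change differed for 11 genes, against 11.9% of all genes. Among the 11 were Tk1 at -1.25, Cdt1 at -1.07, Mcm2 at -0.91, Mcm6 at -0.75 and Kif23 at 0.79. The KO to WT difference differed between populations (CD11c+ minus CD206+) for 9 genes on HFD, against 4.36% of all genes. Among the 9 were Rrm2 at 1.48, Ube2c at 1.32, Nusap1 at 1.31, Ccna2 at 1.30 and Rrm1 at 0.62. On SD it differed for 3 genes, a share near that of all genes (6.57%), with Kif23 at 1.40, Foxm1 at 1.07 and Tyms at 0.94. The diet change of WT mice differed between populations for 17 genes, a share near that of all genes (32.4%). Among the 17 were Mybl2 at -1.70, Rrm2 at -1.47, Cdca8 at -1.41, Ccne1 at -1.26 and Aurkb at -1.24.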

How the results depend on the processing

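Alternatives moved 10 of the 18 counts of called genes by over 1.5 times, and the cause was not tested. CD11c+ against CD206+ in WT mice on HFD (12) gave 25 with the replicate block, 5 without TMM factors, 25 with the 2 CD206+ WT libraries of highest mitotic level left out (chosen after seeing the data) and 5 to 22 without 1 library. The difference of the genotype effect between populations on HFD (9) gave 14 by DESeq2, 20 with the replicate block, 18 with the spread of its own groups and 3 to 13 without 1 library. On SD (3) it gave 6 with the replicate block and 1 to 5 without 1 library. KO against WT gave 12 in CD11c+ cells on HFD (7) with the spread of its own groups, 7 to 16 in CD11c+ cells on SD (13) and 15 to 29 in CD206+ cells on HFD (26) without 1 library. In CD206+ cells on SD (5) it gave 3 with the spread of its own groups, 3 with the 2 libraries left out and 1 to 7 without 1 library. Without 1 library, the interaction of genotype and diet gave 4 to 7 in CD11c+ (4) and 7 to 21 in CD206+ cells (11), and the diet by population difference in WT 11 to 24 (17). The count for HFD against SD in CD206+ WT cells (35), 24 to 40 without 1 library, moved less. The block changed no other count by over 1.5 times. No log2 fold change of a named gene changed sign. Dropping the TMM factors moved the median log2 change of all genes by 0.12 in CD11c+ WT HFD against SD and by -0.18 in WT SD CD11c+ against CD206+. It moved it by -0.10 in the interaction of genotype and diet in CD11c+ cells, and by 0.11 in the genotype by population difference on SD and the diet by population difference in WT.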
